A study of Mus musculus with 8 samples.

Results

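The Fgf12-rich cardiomyocytes of the adult mouse heart were 53 of 6886 cardiomyocyte nuclei, which is 0.770%. A nucleus was kept when it had 200 or more detected genes, under 5% of its unique molecular identifiers (UMIs, which count RNA molecules) from mitochondrial genes and 2500 or more UMIs. It was taken as a cardiomyocyte when Ttn, Ryr2 and Trdn, which encode titin, the calcium release channel and triadin, together held at least 2% of its UMIs. A cardiomyocyte nucleus with 3 or more Fgf12 UMIs was called Fgf12-rich, and it was compared with the 6782 cardiomyocyte nuclei of the same libraries that had 0 Fgf12 UMIs, called Fgf12-zero below. The 51 cardiomyocyte nuclei with 1 or 2 Fgf12 UMIs were in neither class. Fgf12, Ttn, Ryr2 and Trdn chose the nuclei, so their values are given as a description, with no test.

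Fgf12 encodes a fibroblast growth factor homologous factor. These proteins keep the fold of the growth factors but are not secreted, and they bind the cytoplasmic tail of voltage-gated sodium channels and shape how the channels inactivate. The heart's conduction system consists of specialised cardiomyocytes: pacemaker cells of the sinoatrial node fire first, the atrioventricular node delays the impulse, and the bundle branches and Purkinje fibres carry it quickly to the ventricular wall. These cells are few, and they differ from working atrial and ventricular cardiomyocytes in their ion channels, gap junctions and adhesion molecules. The Slit proteins, of which Slit2 is one, are secreted guidance cues that bind Robo receptors.

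Nuclei from adult mouse hearts were profiled with 10x Genomics droplets, and each library carries a label of sex and of genotype: nTg for wild-type mice without the transgene, or Tg for mice that express cyclin A2 constitutively. The promoter of the transgene, the ages and whether hearts were pooled are not given in the sources used here. Of the 8 libraries listed, 5 had a matrix whose columns matched the barcodes deposited with it, and these were used. They are labelled, in the order in which values per library are given below, nTg female 1, then Tg female 1 and 2, then Tg male 1 and 2. Whether replicates came from separate animals is not given, so the p-values measure the spread between these libraries, which may be technical.

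The 5 libraries held 25045167 to 38593706 UMIs and 6250 to 9721 nuclei that passed the filters on genes and mitochondrial UMIs. Pairs of libraries shared 14 to 28 cell barcodes, and 0 or 1 among cardiomyocyte nuclei. The Ccna2 counts went against 2 labels: Ccna2 UMIs were present in 12.98% of Fgf12-zero nuclei under the label nTg female 1, but in 0.348% under the label Tg female 1. Libraries are therefore named by their labels, and with 1 library labelled nTg, genotypes were not compared.

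Fgf12-rich nuclei were present in each of the 5 libraries, at 0.449% to 1.11% of cardiomyocyte nuclei. The library labelled nTg female 1 held 6 of 1213 cardiomyocyte nuclei (0.495%, exact Clopper-Pearson 95% interval 0.182% to 1.07%). The libraries labelled Tg female 1 and 2 held 19 of 2048 (0.928%, 0.559% to 1.45%) and 7 of 940 (0.745%, 0.300% to 1.53%). Those labelled Tg male 1 and 2 held 15 of 1350 (1.11%, 0.623% to 1.83%) and 6 of 1335 (0.449%, 0.165% to 0.976%). All 5 intervals overlapped. They cover counting error only.

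Among the libraries labelled Tg, the share of Fgf12-rich nuclei was 0.836% ± 0.129 (SD, n = 2) in females and 0.780% ± 0.468 (SD, n = 2) in males. The difference, female minus male, was 0.0559 percentage points (exact two-sided permutation test, p = 1; the smallest p that 2 against 2 allows is 0.333). Its sign turned in several alternatives, among them the removal of the library labelled Tg female 1, so no direction is given for it. The Ccna2 counts of that library went against its label, so sex and genotype cannot be fully told apart in this comparison. The threshold of 3 Fgf12 UMIs is reached more easily in a deep nucleus. With all cardiomyocyte nuclei thinned to 2500 UMIs, the share was 0.579% ± 0.217 in females and 0.446% ± 0.313 in males (SD, n = 2 each; exact permutation p = 0.667).

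The Fgf12 content of the chosen nuclei spanned a wide range. The 53 nuclei held 1526 Fgf12 UMIs, 96.0% of those in all cardiomyocyte nuclei, with a median of 13 per nucleus. The lowest, median and highest counts per nucleus were 5, 42 and 77 in the library labelled nTg female 1, 3, 29 and 83 in Tg female 1, and 4, 8 and 28 in Tg female 2. They were 3, 13 and 49 in the library labelled Tg male 1 and 3, 6 and 271 in Tg male 2. The nucleus with 271 UMIs held 90.3% of the Fgf12 UMIs of the Fgf12-rich nuclei of its library, against 12.6% to 34.6% for the top nucleus elsewhere. Just outside the threshold, 12 nuclei had 2 Fgf12 UMIs, 4 of them with a Slit2 UMI. Just inside it, 5 nuclei had 3 Fgf12 UMIs, 2 of them with a Slit2 UMI. Fgf12 lies on the minus strand at chr16:28160098-28753068 (mm10, gene bounds from the GENCODE annotation of that build).

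**Figure D1:**
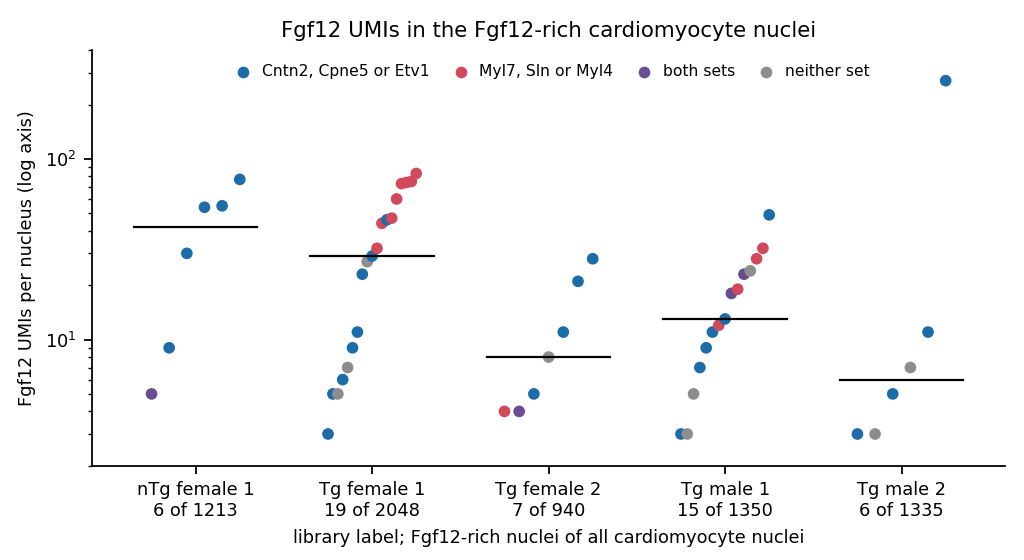
Fgf12 UMIs in each of the 53 Fgf12-rich cardiomyocyte nuclei (log axis) by library label, with the number of such nuclei of all cardiomyocyte nuclei under each label. Black lines are medians (42, 29, 8, 13 and 6 UMIs), and colours mark nuclei with 2 or more UMIs over Cntn2, Cpne5 and Etv1, over Myl7, Sln and Myl4, over both sets or over neither.

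The nuclei were of ordinary depth for cardiomyocytes and had somewhat more mitochondrial UMIs. Median UMIs per nucleus were 7134.5, 7699, 6798, 7808 and 14271.5 in the Fgf12-rich nuclei and 8088, 6644.5, 6171.5, 8165.5 and 8476 in the Fgf12-zero nuclei. The median mitochondrial share was higher in the Fgf12-rich nuclei of each library, at 2.03%, 1.02%, 2.58%, 2.10% and 1.37% against 1.41%, 0.759%, 0.834%, 0.966% and 1.21%. Scrublet, which scores nuclei against simulated mixtures, called 8 of the 53 doublets (15.1%), 6 of them in the library labelled Tg female 1, against 11.0% of the Fgf12-zero nuclei. The part of RNA quality and of doublets in the gene differences below was not tested beyond the repeats without doublets and at matched depth.

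The median share of UMIs from Ttn, Ryr2 and Trdn was lower in the Fgf12-rich nuclei of each library, given as a description. It was 2.898%, 2.942%, 2.774%, 2.977% and 3.102% against 3.298%, 3.593%, 3.001%, 3.322% and 3.521% in the Fgf12-zero nuclei. Fgf12-rich nuclei with a share of 4% or more numbered 1, 3, 0, 3 and 0 by library. Marker genes outside the rule were, as a set, near their Fgf12-zero level in the main fit. Of 10 cardiomyocyte marker genes that the rule did not use, all were tested and their median log2 fold change was 0.04 (−0.38 with the scaling over all genes, −0.12 by DESeq2). The alpha myosin heavy chain gene Myh6 had 5899, 7669, 6571, 9764 and 7935 CPM (UMIs of the gene per 1000000 UMIs summed over the nuclei of a class) in the Fgf12-rich nuclei and 6583 to 8380 CPM in the Fgf12-zero nuclei. These ranges overlapped. Of the 10, Actc1 and Tpm1 were past the test's threshold and are described with the sarcomere genes.

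Slit2, named with Fgf12 as a mark of these nuclei, had 1533, 1236, 182, 656 and 342 CPM in the Fgf12-rich nuclei and 12.3 to 28.7 CPM in the Fgf12-zero nuclei. Each library's Fgf12-rich sum lay above each Fgf12-zero sum. Single nuclei weighed on these sums. In Tg female 1, a nucleus held 78 Slit2 UMIs and another, a called doublet, held 69. A nucleus of nTg female 1 held 53, and a nucleus of Tg male 1 held 40. A Slit2 UMI was found in 27 of the 53 nuclei and in 5.19% of the Fgf12-zero nuclei (median 7463.5 UMIs). It was found in 26.0% of the 14343 nuclei of other types, which had under 0.5% Ttn, Ryr2 and Trdn and a median of 3387 UMIs, which is above the share in the Fgf12-zero nuclei. Slit2 was part of how the nuclei were described, so it has no test here.

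The remaining genes were tested with UMI counts summed per library and class, in edgeR's quasi-likelihood test with the library as a block and Benjamini-Hochberg adjustment. Each library's Fgf12-rich sum held only 51531 to 155306 UMIs, against 6525324 to 15099880 in the Fgf12-zero sum, so that 1 UMI of an Fgf12-rich sum stood for 6.44 to 19.4 CPM. Of 13703 genes, 807 had an adjusted p under 0.05 (5.89%), 654 of them higher (4.77%) and 153 lower (1.12%) in the Fgf12-rich nuclei. The CPM ranges of the classes did not overlap over the 5 libraries for 1283 genes (9.36%), the background for the statements on overlap below. The median log2 fold change over all tested genes was 0.11. Scaling on all tested genes moved that median to −0.30 and the split to 439 higher and 566 lower, a share of higher genes of 43.7% in place of 81.0%. Changes no larger than this shift therefore depend on the scaling. In the text below, "rose" and "fell" are used only for genes past the adjusted p threshold of 0.05 in this test, and fold changes are log2 values, Fgf12-rich over Fgf12-zero, with their standard error (SE).

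**Figure D2:**
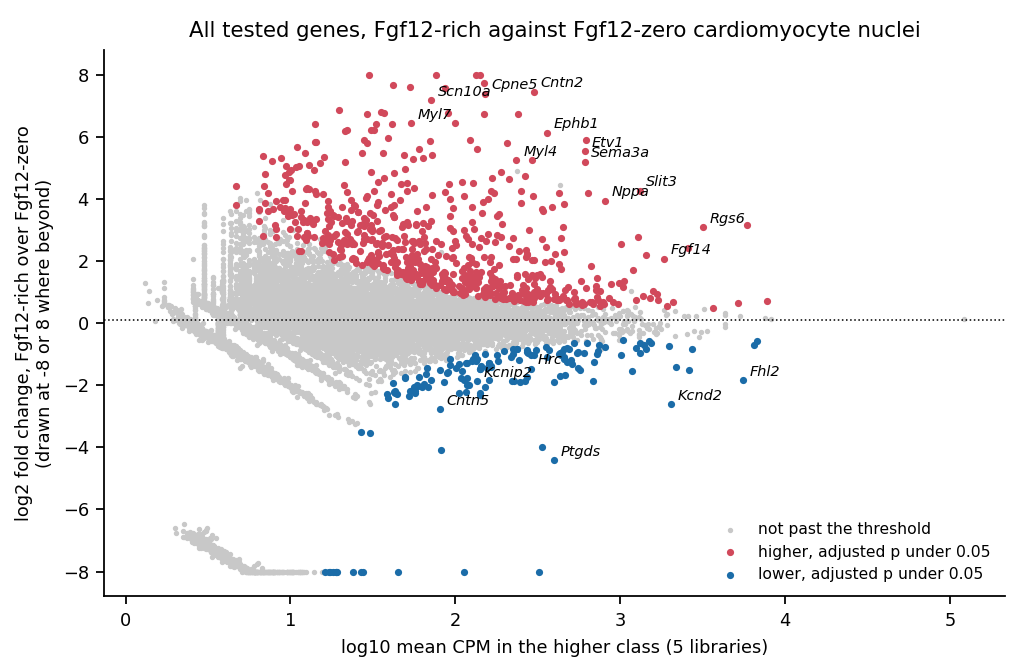
Log2 fold change of each tested gene, Fgf12-rich over Fgf12-zero cardiomyocyte nuclei, against the log10 of its mean CPM in the higher class over 5 libraries. The dotted line is the median of all tested genes (0.11), and genes with no UMI in the Fgf12-rich nuclei sit at the lower edge. Called genes are mostly higher (654 against 153), and Cntn2, Cpne5, Ephb1 and Etv1 stand at the top right.

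Genes of the conduction system and of pacemaker cells rose together in the Fgf12-rich nuclei. Of 20 listed genes 17 were tested, and 11 rose and 0 fell, with a median log2 fold change of 3.46 beside 0.11 for all tested genes. Of all tested genes 4.77% rose and 1.12% fell. Those that rose were Hcn4, Cacna1d, Cacna1g, Cacna2d2, Tbx3, Gja5, Cntn2, Etv1, Cpne5, Ntm and Rgs6. Ntm had no UMI in 2 libraries and was not called by DESeq2 (adjusted p = 0.72).

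Cntn2 encodes contactin 2, an adhesion molecule known as a mark of the ventricular conduction system. It had 349, 64.4, 692, 247 and 145 CPM in the Fgf12-rich nuclei and 0.987 to 1.71 CPM in the Fgf12-zero nuclei. The library labelled Tg female 1 was lowest and Tg female 2 highest, and the classes did not overlap. The fold change was 7.46 (SE 0.43, edgeR adjusted p = 9.5e-65), and 25 of the 53 nuclei had a Cntn2 UMI against 0.737% of the Fgf12-zero nuclei and 0.286% of the nuclei of other types. Nfasc, which encodes the adhesion molecule neurofascin and lies beside Cntn2 (chr1:132564690-132741797 and chr1:132509427-132543256, both minus strand, mm10), had 58.2, 58.0, 237, 51.1 and 26.3 CPM against 0.0931 to 0.766 CPM. Nfasc rose by 7.59 (SE 0.61, edgeR adjusted p = 7.9e-33).

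Cpne5, which encodes the calcium-binding protein copine 5, had 97.0, 12.9, 346, 196 and 105 CPM against 0.467 to 0.919 CPM. The Tg female 1 value was again the lowest and still above each Fgf12-zero value. The fold change was 7.39 (SE 0.54, edgeR adjusted p = 7.5e-40). Etv1, a transcription factor known for its part in the fast conduction of atria and Purkinje fibres, had 543, 328, 1292, 622 and 250 CPM against 9.50 to 19.7 CPM. It rose by 5.54 (SE 0.25, edgeR adjusted p = 6.9e-89). Etv1 UMIs were common outside cardiomyocytes, at 30.8% of the nuclei of other types against 6.74% of the Fgf12-zero nuclei.

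The channel genes of pacemaking were higher but rested on fewer molecules. Hcn4, the main pacemaker channel gene of the sinoatrial node, had 97.0, 6.44, 72.8, 76.7 and 39.4 CPM against 3.44 to 7.20 CPM, a rise of 3.60 (SE 0.54, edgeR adjusted p = 1.8e-09) from 22 UMIs in 9 nuclei. In the library labelled Tg female 1 the Hcn4 value lay within the Fgf12-zero range. Cacna1d and Cacna1g encode an L-type and a T-type calcium channel found in nodal cells. Cacna1d had 38.8, 180, 309, 256 and 105 CPM against 14.2 to 20.7 CPM and rose by 3.46 (SE 0.34, edgeR adjusted p = 9.3e-22). Cacna1g had 97.0, 64.4, 437, 59.6 and 52.5 CPM against 13.8 to 21.7 CPM and rose by 2.75 (SE 0.42, edgeR adjusted p = 3.7e-09). Neither gene's classes overlapped.

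Tbx3, the transcription factor that holds back the working muscle programme in the nodes, had 19.4, 38.6, 146, 25.6 and 26.3 CPM against 4.28 to 6.44 CPM, with no overlap. It rose by 3.27 (SE 0.55, edgeR adjusted p = 2e-07). Rgs6, a regulator that shortens muscarinic signalling in pacemaker cells, was already well expressed in Fgf12-zero nuclei, at 272 to 525 CPM, and had 3008, 2659, 6371, 2547 and 1222 CPM in Fgf12-rich nuclei. The Rgs6 rise was 3.10 (SE 0.18, edgeR adjusted p = 2.2e-64), and 51 of the 53 nuclei had a UMI of it.

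Atrial genes were the second group that stood out. Of 11 listed genes 9 were tested, 7 rose and 0 fell, and their median was 4.83. Over all tested genes 4.77% rose and 1.12% fell. Myl4, the atrial essential myosin light chain, had 58.2, 438, 273, 392 and 13.1 CPM against 4.75 to 7.73 CPM and rose by 5.25 (SE 0.36, edgeR adjusted p = 6.5e-45). Myl7, the atrial regulatory light chain, had 19.4, 155, 36.4, 59.6 and 0 CPM against 0 to 1.38 CPM and rose by 6.45 (SE 0.68, edgeR adjusted p = 5.6e-19). Sln, which encodes the atrial calcium pump regulator sarcolipin, had 0, 109, 36.4, 59.6 and 0 CPM and rose by 6.42 (SE 0.71, edgeR adjusted p = 2.4e-17). The 3 muscle genes were high in the libraries labelled Tg female 1, Tg female 2 and Tg male 1 and low in nTg female 1 and Tg male 2. Dkk3, Stard10 and Gja5 (connexin 40, the fast gap junction of atria and Purkinje fibres) also rose, by 4.88, 4.83 and 4.18. Gja5 is in the conduction and pacemaker list too, so its rise is counted in both lists. In the sets of nuclei described below, Gja5 had 16 UMIs in Cntn2-set nuclei and 0 in Myl7-set nuclei. Stard10 had 12 and 3.

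Nppa, the gene of atrial natriuretic peptide, had 718, 644, 273, 1789 and 617 CPM against 34.2 to 79.2 CPM. The classes did not overlap, and the rise was 3.95 (SE 0.22, edgeR adjusted p = 2.1e-47). One nucleus held 35.0% of its 409 UMIs in the Fgf12-rich nuclei, and with called doublets removed the gene no longer passed (4.43, edgeR adjusted p = 0.073). Kcnj3, an atrial potassium channel subunit that answers acetylcholine, had 505, 2421, 837, 1815 and 236 CPM against 414 to 634 CPM and did not pass (edgeR adjusted p = 0.57). It was above the Fgf12-zero range in the same 3 libraries in which Myl7 and Sln were highest.

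**Figure D3:**
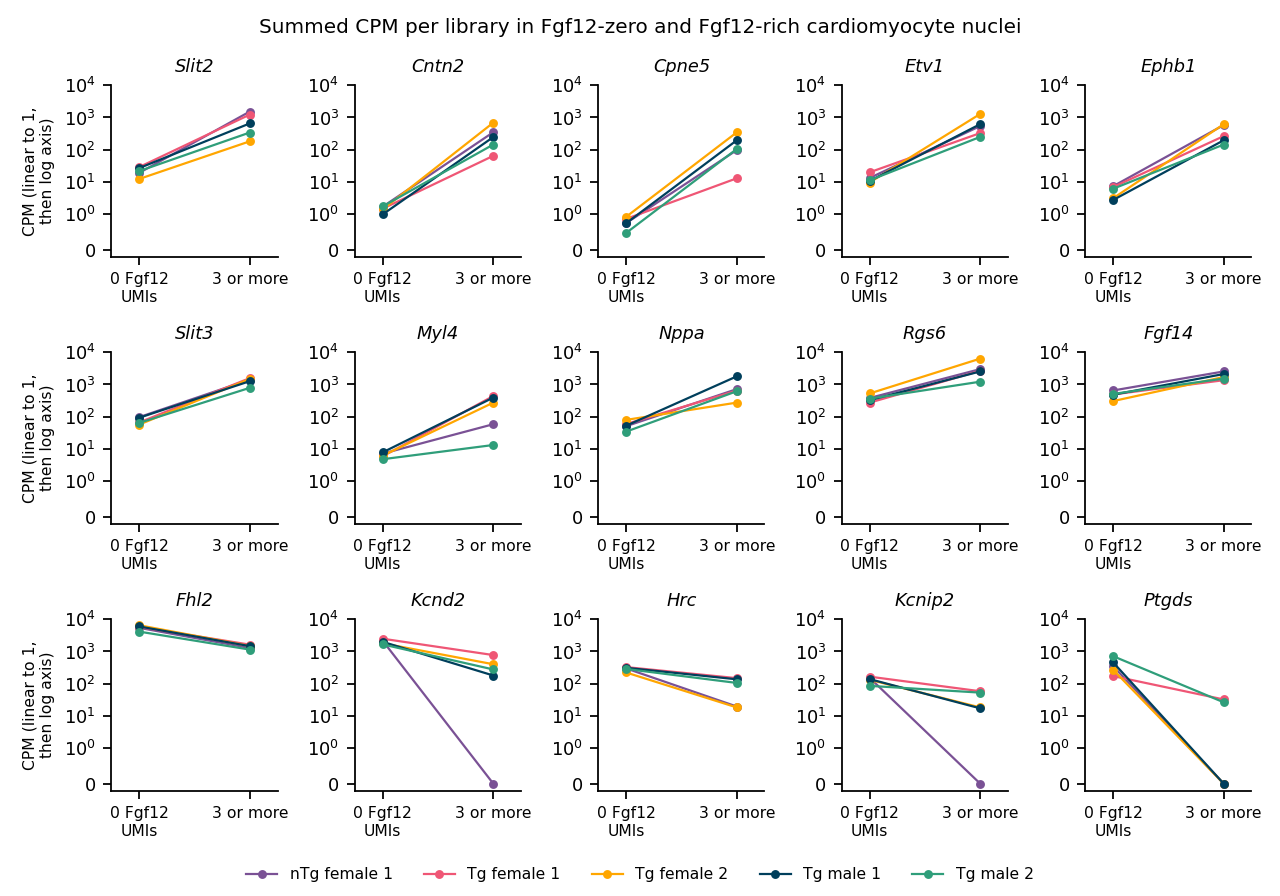
Summed CPM of 15 genes in the Fgf12-zero (left) and Fgf12-rich (right) cardiomyocyte nuclei of each library, joined by a line per library. The axis is linear from 0 to 1 CPM and logarithmic above. Cntn2 goes from 0.987 to 1.71 up to 64.4 to 692 CPM, Fhl2 from 4146 to 6541 down to 1143 to 1629 CPM, and Ptgds reaches 0 in 3 libraries.

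The genes with the highest fold changes under the naming rule were of several kinds. By that rule (an adjusted p under 0.05, at least 20 CPM and the same direction in each library) the 12 highest were Pcp4, Nfasc, Cntn2, Cpne5, Ftcd, Cdh6, Dnajc5b, Ephb1, Gm49750, Fbn2, Stk32a and Gm16863. Pcp4, which encodes a small calmodulin regulator, had 19.4, 6.44, 200, 25.6 and 13.1 CPM against 0 to 0.530 CPM and the highest fold change of the 12 (7.60, SE 0.81, edgeR adjusted p = 1.6e-18), from 17 UMIs in 9 nuclei. Ephb1, a receptor for ephrin-B guidance ligands, had 582, 264, 619, 196 and 145 CPM against 2.71 to 7.26 CPM and rose by 6.13 (SE 0.30, edgeR adjusted p = 7.2e-87). Ephb1 UMIs were in 26 of the 53 nuclei.

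Fbn2, the gene of the matrix protein fibrillin 2, had 699, 245, 1074, 443 and 631 CPM against 5.29 to 26.6 CPM, and 27 nuclei had a UMI. The rise of 5.91 (SE 0.57, edgeR adjusted p = 0.00017) did not pass without the library labelled nTg female 1 (edgeR adjusted p = 0.094), although the classes did not overlap. Cdh6 (cadherin 6), Ftcd (a folate enzyme), Dnajc5b and the kinase gene Stk32a rose by 6.46, 6.76, 6.23 and 5.91, from 10 to 45 UMIs each. Gm49750 and Gm16863 are long noncoding RNA genes that overlap on opposite strands (chr16:21238495-21263159, plus, and chr16:21247499-21296872, minus, mm10). Whether counting used strand is not given in the sources used here, so their reads may not be separable. Gm16863 had 175, 148, 473, 34.1 and 197 CPM against 2.10 to 6.28 CPM, and 0.0209% of the nuclei of other types had a UMI.

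The Slit, Robo and netrin family rose in part. Besides Slit2, 13 of its genes were tested, 5 rose and 0 fell, and their median was 1.97. Slit3, a second secreted Slit ligand, had 1417, 1578, 1493, 1269 and 788 CPM against 56.4 to 96.3 CPM and rose by 4.28 (SE 0.20, edgeR adjusted p = 2.6e-99). The Slit3 values were of the same order in each library, and 49 of the 53 nuclei had a UMI, against 30.4% of the Fgf12-zero nuclei and 42.3% of the nuclei of other types. Among receptors, Robo1 had 0, 258, 837, 85.2 and 145 CPM against 4.75 to 14.7 CPM and rose by 4.75 (SE 0.38, edgeR adjusted p = 1.1e-30). Robo1 was found in 14 nuclei and not in the library labelled nTg female 1. In Tg female 1, a called doublet held 35 Robo1 UMIs.

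Robo2 and the intracellular Robo partner Srgap1 rose by 3.74 and 3.70. Unc5c, a netrin receptor, rose by 2.67 on 7 UMIs. It did not pass without the library labelled nTg female 1, Tg female 1 or Tg male 1 (edgeR adjusted p = 0.12, 0.41 and 0.17), nor by DESeq2 (adjusted p = 0.077). Outside the list, Sema3a, a secreted semaphorin that patterns cardiac sympathetic nerves, had 1203, 708, 601, 358 and 171 CPM against 9.65 to 20.8 CPM and rose by 5.21 (SE 0.24, edgeR adjusted p = 2.1e-98). It is named here after its values were seen.

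The relatives and partners of Fgf12 moved unequally. Of the other homologous factor genes, 2 of 3 were tested and 1 rose. Fgf14 had 2542, 1359, 1711, 2113 and 1524 CPM against 304 to 650 CPM and rose by 2.08 (SE 0.17, edgeR adjusted p = 5.2e-30), in each library and with no overlap. Fgf13 had 1242, 2588, 1693, 1491 and 3311 CPM against 2345 to 4149 CPM and did not pass (−0.45, SE 0.17, edgeR adjusted p = 0.089), with 4 of 5 libraries lower and Tg male 2 higher. With called doublets removed, Fgf13 was past the threshold and lower (edgeR adjusted p = 0.015).

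Scn10a, a sodium channel of sensory neurons, had 175, 51.5, 0, 51.1 and 78.8 CPM against 0.165 to 0.919 CPM. It rose by 7.19 (SE 0.60, edgeR adjusted p = 8.8e-31), from 29 UMIs in 12 nuclei, and had no UMI in the Fgf12-rich nuclei of the library labelled Tg female 2.

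Working ventricular genes moved in both directions. Of 7 genes, 2 fell and 1 rose, and their median was −0.46. Fhl2, a LIM-domain protein of the sarcomere and nucleus, had 1281, 1629, 1474, 1465 and 1143 CPM against 4146 to 6541 CPM. It was low in each library, with no overlap, and fell by 1.84 (SE 0.17, edgeR adjusted p = 1.4e-25). Kcnip2, a subunit of the channel behind the fast transient outward potassium current, had 0, 58.0, 18.2, 17.0 and 52.5 CPM against 85.3 to 165 CPM and fell by 1.88 (SE 0.37, edgeR adjusted p = 2.6e-05). The pore gene of the same current, Kcnd2, had 0, 773, 400, 179 and 276 CPM against 1659 to 2494 CPM.

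Kcnd2 fell by 2.60 (SE 0.47, edgeR adjusted p = 0.0097), and did not pass without the library labelled Tg female 2 or without Tg male 2 (edgeR adjusted p = 0.10 and 0.19), although the classes did not overlap. Kcnd2 and Kcnip2 were the 2 genes that fell among 15 tested potassium channel genes, of which 0 rose (median −0.15). Myl2, the ventricular regulatory light chain, had 718, 612, 765, 954 and 1051 CPM against 745 to 906 CPM and did not pass (0.14, SE 0.18, edgeR adjusted p = 0.85). Mylk3, the kinase of that light chain, was the ventricular gene that rose (0.74, SE 0.20, edgeR adjusted p = 0.0046). It was not past the threshold by DESeq2 (adjusted p = 0.054) or with the scaling over all genes (0.33, edgeR adjusted p = 0.38).

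Among 12 calcium handling genes, 3 fell and 1 rose, and the median was −0.02. Hrc, the histidine-rich calcium binding protein of the sarcoplasmic reticulum, had 19.4, 148, 18.2, 136 and 105 CPM against 222 to 327 CPM and fell by 1.47 (SE 0.27, edgeR adjusted p = 2.1e-06), with no overlap. The L-type channel genes Cacna1c and Cacna2d1 fell by 0.59 and 0.72 (edgeR adjusted p = 0.0046 and 0.0019). Cacna1c did not pass without the library labelled nTg female 1 or Tg female 1 (edgeR adjusted p = 0.091 and 0.067). Slc8a1, the sodium-calcium exchanger, rose by 0.71 (edgeR adjusted p = 0.00018) but not by DESeq2 (adjusted p = 0.26) or with the scaling over all genes (0.30, edgeR adjusted p = 0.33).

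Of 20 sarcomere genes, Actc1 and Tpm1 rose and Myh7b fell, with a median of 0.15 that was −0.27 with the scaling over all genes and −0.01 by DESeq2. Actc1, cardiac alpha actin, had 621, 496, 546, 818 and 1090 CPM against 261 to 406 CPM and rose by 1.21 (SE 0.19, edgeR adjusted p = 1.9e-08). Tpm1 (alpha tropomyosin) rose by 0.95 and the minor myosin gene Myh7b fell by 1.03. Of 9 fetal and wall stress genes 4 rose and 0 fell, namely Nppa, Acta2, Ankrd1 and Xirp2. Ankrd1 and Xirp2 had overlapping ranges and were not past the threshold by DESeq2 (adjusted p = 0.71 and 0.55) or with the scaling over all genes (edgeR adjusted p = 0.48 and 0.47). Ankrd1 did not pass without the library labelled nTg female 1, Tg male 1 or Tg male 2 (edgeR adjusted p = 0.083 to 0.37), nor Xirp2 without Tg female 1 or Tg male 2 (0.39 and 0.055).

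None of the 16 fatty acid oxidation genes passed (median −0.37). With the scaling over all genes 9 of them were past the threshold and lower, and by DESeq2 1 was, so the number of calls depends on the scaling. The list's median was negative in each of these fits (−0.78 with the scaling over all genes, −0.52 by DESeq2), and none of its genes was called higher. Of the cell cycle genes, 0 of 8 tested S phase genes passed. Of 2 tested G2M genes Cenpf rose, on 20 UMIs of which 1 nucleus held 10, and it did not pass without the library labelled Tg male 1 (edgeR adjusted p = 0.95).

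**Figure D4:**
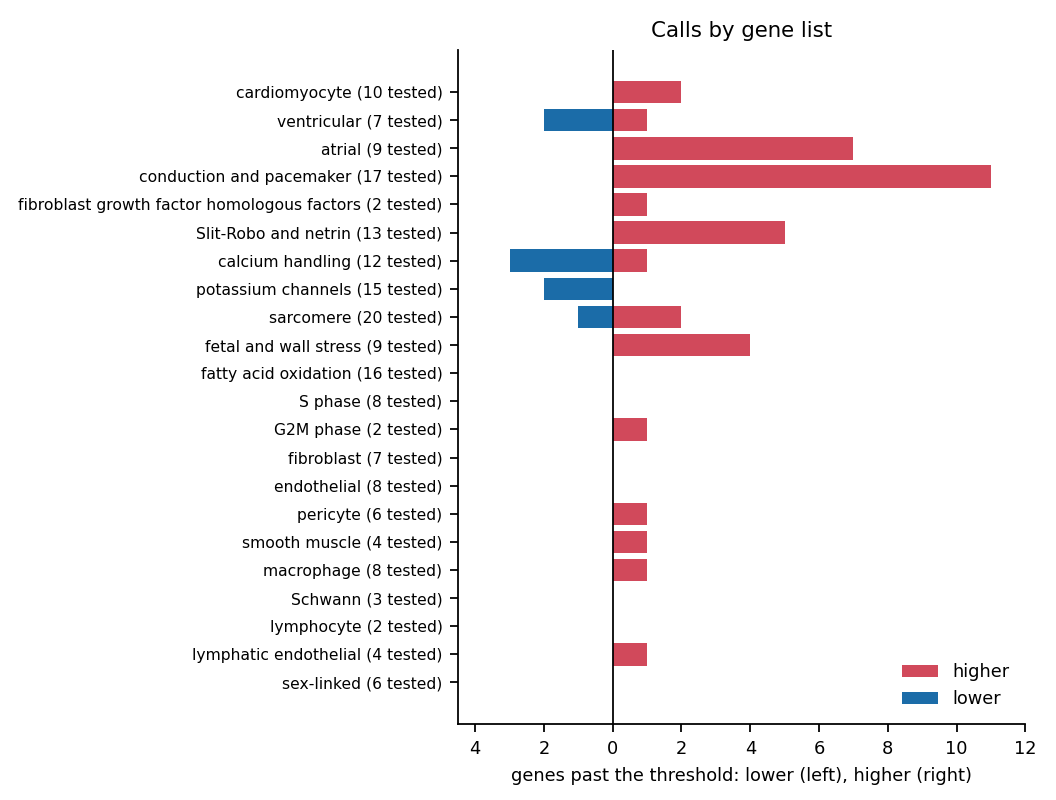
Genes past the adjusted p threshold in each list of genes, lower to the left and higher to the right of 0, with the number tested beside each list's name and Slit2 left out. The conduction and pacemaker list (11 of 17 higher) and the atrial list (7 of 9 higher) have the longest bars, and the sodium channel list and lists with fewer than 2 genes tested are not drawn.

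The genes with the lowest fold changes included several that were at or near 0 in the Fgf12-rich nuclei. By the naming rule the 12 lowest included Ccna2, Gm10800, D7Ertd443e, Gm20617, Gm10801, Bdh1, Ptgds, Gm47371, Gm11732, Tmeff1 and Cntn5. Ptgds, prostaglandin D synthase, had 0, 32.2, 0, 0 and 26.3 CPM against 172 to 716 CPM and fell by 4.42 (SE 0.38, edgeR adjusted p = 2.7e-28).

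Cntn5, a relative of Cntn2, went the other way, with 0, 12.9, 18.2, 17.0 and 0 CPM against 53.8 to 98.7 CPM (−2.77, SE 0.55, edgeR adjusted p = 2.3e-05). D7Ertd443e had no UMI in the 53 nuclei, where 11.7 nuclei would have one at the Fgf12-zero shares. Against a floor of 3 counts over the 5 libraries, D7Ertd443e was at least 7.98-fold lower (edgeR adjusted p = 8.1e-06), Gm20617 at least 4.03-fold and the ketone body enzyme gene Bdh1 at least 3.31-fold lower. Gm20617 and Bdh1 did not pass without the library labelled Tg male 1 (edgeR adjusted p = 0.058 and 0.063), and Bdh1 also without Tg female 1 or Tg female 2 (0.082 and 0.053).

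Gm47371, an antisense gene, had 2 UMIs in the Fgf12-rich nuclei, 0.0536 times the Fgf12-zero level (95% counting interval 0.00649 to 0.194). Gm11732 and Tmeff1 had 1 UMI each, 0.0752 times (0.0019 to 0.419) and 0.0806 times (0.00204 to 0.449) the Fgf12-zero level. Gm11732 did not pass without the library labelled nTg female 1, Tg female 1, Tg female 2 or Tg male 1 (edgeR adjusted p = 0.053 to 0.18). Tmeff1 did not pass without nTg female 1, Tg female 2, Tg male 1 or Tg male 2 (edgeR adjusted p = 0.060 to 0.20), nor by DESeq2 (adjusted p = 0.060). Gm10800 and Gm10801 are near-identical neighbours on chromosome 2 whose reads counting could split, so they are uncertain. Neither was called by DESeq2 (adjusted p = 0.12 and 0.15), and Gm10801 did not pass without Tg female 2 or Tg male 1 (edgeR adjusted p = 0.062 and 0.11).

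Ccna2 had no UMI in the 53 Fgf12-rich nuclei, which allows up to 5.66% of such nuclei to have a Ccna2 UMI and sets no limit on nuclei that express it. In the Fgf12-zero nuclei it had 453, 0.464, 799, 217 and 147 CPM, and 6.97% had a UMI. The test on summed UMIs called it lower (edgeR adjusted p = 8.1e-26; DESeq2 adjusted p = 0.039). By nuclei the absence was small, since the shares of Fgf12-zero nuclei with Ccna2 in each library would give 3.34 such nuclei of 53. The limit of 5.66% stands for 3 nuclei in 53, close to those 3.34. The 6.97% pools libraries that ranged from 0.348% to 16.0%, so it was not set against the limit. With Ttn, Ryr2 and Trdn at 4% or more, Ccna2 was not past the threshold (edgeR adjusted p = 0.34). The share of Ccna2 nuclei was not tested, and no fold is given.

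The summed levels of markers of other cell types differed between libraries. The summed level of 8 fibroblast genes was 58.2, 1822, 218, 93.7 and 13.1 CPM in the Fgf12-rich nuclei and 223 to 355 CPM in the Fgf12-zero nuclei. Tg female 1, the library with 6 of the 8 called doublets, stood above the Fgf12-zero range and the other 4 libraries below it. The 6 Fgf12-rich nuclei with over 0.2% of their UMIs from this list were the same 6 called doublets of Tg female 1. None of the 7 tested fibroblast genes passed, Tcf21 was at 0, and none of the 8 endothelial or 3 Schwann cell genes passed. The summed levels of 8 endothelial genes were 18.2 to 270.4 CPM against 99.5 to 205 CPM. The summed levels of 5 smooth muscle genes were 38.8, 25.8, 127, 119 and 65.7 CPM against 12.01 to 36.0 CPM, above the Fgf12-zero range in each library but Tg female 1.

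Single genes rose in 4 other lists. These were the pericyte gene Cspg4 (1 of 6), the smooth muscle gene Acta2 (1 of 4), the macrophage gene Mertk (1 of 8) and the lymphatic gene Flt4 (1 of 4). Flt4 did not pass without the library labelled Tg male 1 (edgeR adjusted p = 0.44), where the 5 lymphatic genes summed to 682 CPM against 77.6 to 174 CPM in the Fgf12-rich nuclei of the other libraries. Mertk did not pass without Tg female 2 (edgeR adjusted p = 0.089), and Cspg4 lost its call with each of the 5 libraries left out in turn (edgeR adjusted p = 0.057 to 0.21). The macrophage genes Adgre1 and Ptprc, the Schwann cell gene Sox10, the neuron genes Snap25, Tubb3 and Th, the epicardial genes Msln, Upk3b and Muc16 and the adipocyte genes Adipoq and Cidec were at 0, as were 7 of 8 lymphocyte genes. Of the lymphocyte list 2 genes were tested and 0 passed, and none of the neuron, epicardial or adipocyte genes was tested. The part of these other cell types in the gene differences was not tested. With doublets removed 830 genes were called, and 700 of them were among the 807 and had the same direction.

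The 53 nuclei were not alike. A pair of gene sets, chosen after the values were seen, split most of them: nuclei with 2 or more UMIs over Cntn2, Cpne5 and Etv1 (here the Cntn2-set nuclei) and nuclei with 2 or more UMIs over Myl7, Sln and Myl4 (the Myl7-set nuclei). There were 27 Cntn2-set nuclei, 13 Myl7-set nuclei, 4 nuclei with both and 9 with neither. Among Fgf12-zero nuclei the same counts were 159 (2.34%), 39 (0.575%), 8 (0.118%) and 6576. The split is a description with no test, and the intervals below are exact Poisson 95% intervals on pooled UMIs, which cover counting error only.

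Cntn2-set nuclei were found in each library, 5, 8, 4, 6 and 4 of them. Myl7-set nuclei were not, with 0, 8, 1, 4 and 0, so 8 of the 13 came from the library labelled Tg female 1. The Myl7-set nuclei had the higher median of Fgf12 UMIs, 44 against 11, and fewer UMIs in all, 5256 against 9253 in the median. Median mitochondrial shares were 2.19% and 1.26%. The 9 nuclei with neither set had a median of 7 Fgf12 UMIs, and 3 of them had a Slit2 UMI.

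Slit2 was found in more of the Cntn2-set nuclei than of the Myl7-set nuclei. It was found in 23 of 27 Cntn2-set nuclei (1261 CPM, 1130 to 1404) and in 1 of 13 Myl7-set nuclei (23.3 CPM, 2.82 to 84.1). Ephb1 was found in 22 of the 27 (486 CPM, 406 to 577) and in 0 of the 13 (interval 0 to 43.0 CPM). Sema3a had 806 CPM (701 to 921) against 11.6 CPM (0.295 to 64.9), and Robo1 399 CPM (327 to 483) against 11.6 CPM (0.295 to 64.9). For Ephb1 and Sema3a the intervals of the sets did not overlap. Of the 335 Slit2 UMIs of the Cntn2-set nuclei, single nuclei held 78, 69 and 53. A called doublet of Tg female 1 held 35 of their 106 Robo1 UMIs. The levels of Slit2 and Robo1 in the sets were therefore not compared. Robo1 was found in 13 of the 27 and in 1 of the 13. Called doublets were 4 of the 27 and 2 of the 13. The 4 nuclei with both sets had no UMI of Slit2, Ephb1, Sema3a or Robo1 (interval 0 to 160.1 CPM for each). The 9 nuclei with neither set had 582 CPM of Slit2 (427 to 774), in 3 nuclei, and 557 CPM of Sema3a (406 to 745), in 5 nuclei, so Slit2 and Sema3a were not restricted to Cntn2-set nuclei.

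Some ion channel genes also differed between the sets. Scn10a had 102 CPM (67.0 to 148) in Cntn2-set nuclei and no UMI in Myl7-set nuclei, and Hcn4 had 79.1 CPM (48.9 to 121) and no UMI. Kcnj3 went the other way, at 629 CPM (537 to 732) against 4367 CPM (3936 to 4832). The intervals overlapped for Cacna1d, at 158 CPM (114 to 214) against 245 CPM (151 to 374), and for Kcnj5, at 45.2 CPM (23.3 to 78.9) against 93.2 CPM (40.2 to 184).

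Some muscle genes differed too. Myl2 had 1054 CPM (934 to 1185) in Cntn2-set nuclei and 245 CPM (151 to 374) in Myl7-set nuclei, and Dkk3 had 0 and 210 CPM (124 to 331). Gja5 UMIs were found in 10 of the 27 (60.2 CPM, 34.4 to 97.8) and in 0 of the 13 (0 to 43.0 CPM), with overlapping intervals. Of the homologous factor genes, Fgf14 had 2225 CPM (2050 to 2412) against 838 CPM (656 to 1056). Fgf12, which chose the nuclei, had 3027 CPM in Cntn2-set nuclei and 6789 CPM in Myl7-set nuclei, given as a description. A single nucleus of Tg male 2 held 271 of the 804 Fgf12 UMIs of the Cntn2-set nuclei, so the levels of Fgf12 were not compared.

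Other genes were shared by both sets. Slit3 had 1540 CPM (1394 to 1697) and 1537 CPM (1286 to 1823), and Rgs6 3253 CPM (3040 to 3478) and 2818 CPM (2474 to 3196). Nppa had 1039 CPM (920 to 1169) in 10 of the 27 and 967 CPM (770 to 1198) in 8 of the 13, but 1 nucleus of Tg male 1 held 143 of the 276 Nppa UMIs of the Cntn2-set nuclei, so its levels in the sets were not compared. Fhl2 was under the Fgf12-zero range of 4146 to 6541 CPM in both, at 1491 CPM (1348 to 1645) and 943 CPM (749 to 1172). Kcnd2 was also under its Fgf12-zero range of 1659 to 2494 CPM in both, at 290 CPM (229 to 362) and 885 CPM (697 to 1108).

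**Figure D5:**
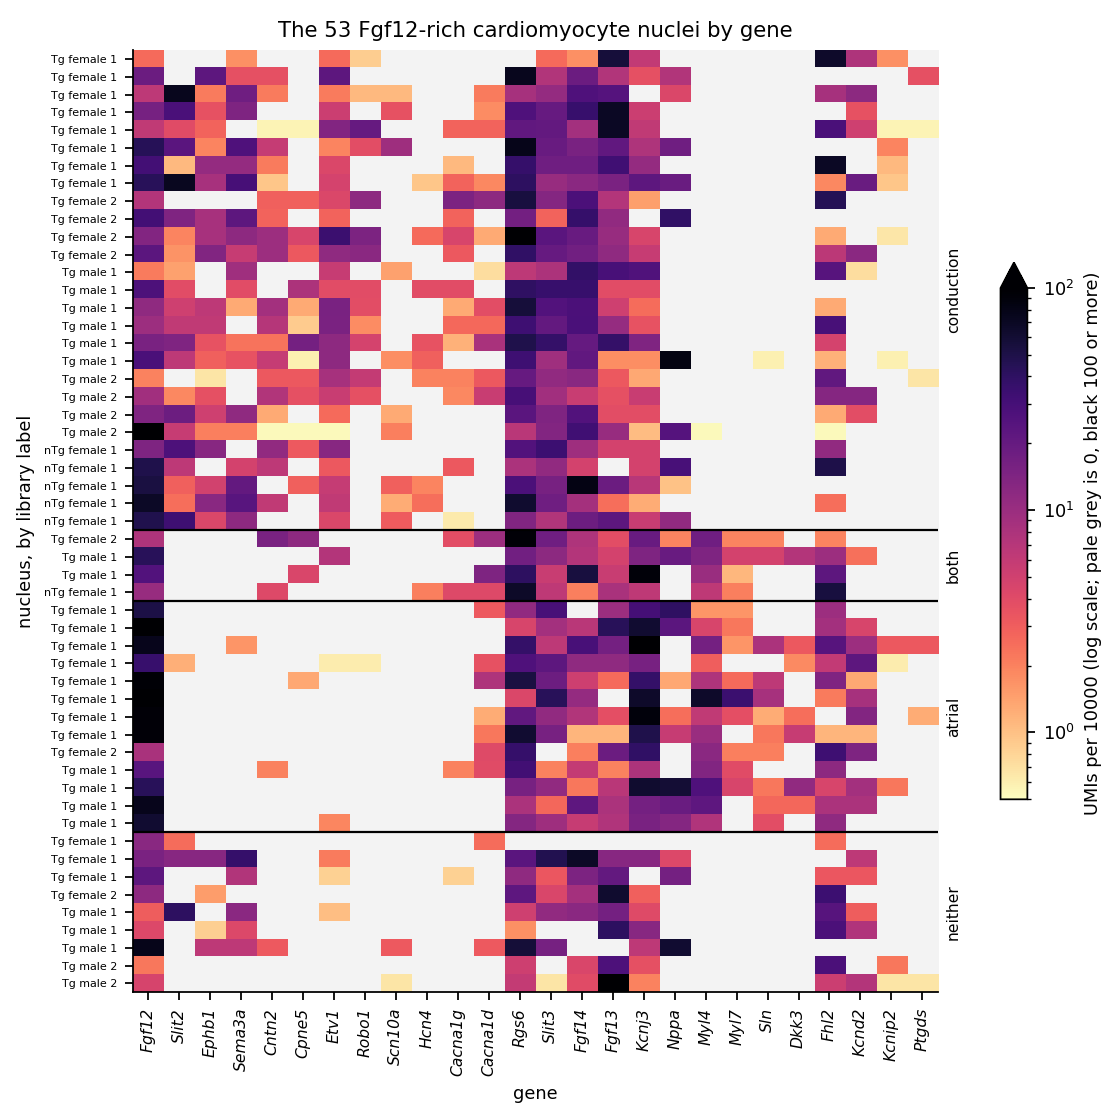
UMIs per 10000 of 26 genes in each of the 53 Fgf12-rich nuclei (rows, grouped by gene set and named by library label), on a log scale with pale grey for 0. Slit2, Ephb1 and Sema3a are filled in the Cntn2-set nuclei at the top (27 rows, marked conduction), Myl4, Myl7 and Sln in the Myl7-set nuclei (13 rows, marked atrial), and Rgs6 and Slit3 in nearly all.

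Sex was compared within the Fgf12-rich nuclei of the 4 libraries labelled Tg. Of 1864 genes tested 8 passed (0.429%), 5 higher (0.268%) and 3 lower (0.161%) in females. Xist, the RNA that silences one X chromosome, had 1108 and 819 CPM in the females and 0 in both males (edgeR adjusted p = 3.6e-09), and its antisense partner Tsix had 586 and 546 CPM and 0 (edgeR adjusted p = 8.8e-08). Xist and Tsix overlap, so without strand their reads may not be separable. Uty, on the Y chromosome, had no UMI in the females and 298 and 118 CPM in the males (edgeR adjusted p = 0.00043). These 3 genes followed the sex labels. In the Fgf12-zero nuclei of the library labelled Tg male 1, Xist stood at 19.7 CPM and Tsix at 34.1 CPM.

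Pdk4, a kinase that turns down pyruvate use, had 109 and 109 CPM in the females and 537 and 617 CPM in the males (−2.40, SE 0.50, edgeR adjusted p = 0.0063). The Fgf12-zero nuclei had the same order, with 217 and 396 against 870 and 728 CPM, and the class by sex test, which called 4 of 13703 genes (0.0292%), did not call Pdk4. Pdk4 did not pass by DESeq2, with called doublets removed or without the library labelled Tg female 1. Picalm, a clathrin adaptor gene, had 232 and 182 CPM in the females and 707 and 998 CPM in the males (−2.03, SE 0.46, edgeR adjusted p = 0.017). A single nucleus held 40 of the 83 Picalm UMIs of Tg male 1, and another 43 of the 76 of Tg male 2, and the call was lost in 6 of 10 alternatives.

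The other 3 genes higher in females were Gsn, Shisa9 and Ntm. In Tg female 1 and 2, Gsn was found in 8 and 5 Fgf12-rich nuclei, Shisa9 in 2 and 2 and Ntm in 5 and 3. Gsn, a gene of the fibroblast list, had 580 and 146 CPM in the females and 42.6 and 13.1 CPM in the males (edgeR adjusted p = 0.015), with its highest value in the library whose Fgf12-rich nuclei had the most fibroblast UMIs. That library's part in the Gsn difference was not tested. Shisa9 had 238 and 182 CPM against 17.0 and 13.1 CPM, and 1 nucleus held 36 of its 37 UMIs in Tg female 1 (edgeR adjusted p = 0.0049). Ntm had 180 and 528 CPM against 17.0 and 0 CPM (edgeR adjusted p = 0.002). Gsn, Shisa9, Ntm and Uty were not called by DESeq2, and Ntm was also not called with doublets removed or without the library labelled Tg female 2. With the replicate number as a block, 7 of the 1864 genes passed, Picalm not among them.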

How the data were processed

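The submitters deposited UMI counts per gene and barcode, whole numbers with no normalization, made with Cell Ranger 7.0.0 per the file headers. The genome build is mm10, per the submitters' processing notes. Whether introns or strand were used in counting is not given in the sources used here. Of 8 listed libraries, 3 had matrices identical to another library's and out of step with their own barcode lists, and they were not analysed here.

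Nuclei were filtered and classed as described above, and the counts of each library and class were summed. The members, gene lists and tests were chosen with earlier results of these data known. Sums were tested with edgeR 4.0.16 (R 4.3.3; filterByExpr, quasi-likelihood test with robust estimation, library as a block, Benjamini-Hochberg adjustment, threshold 0.05), with DESeq2 1.42.0 as the alternative. TMM factors came from the 784 genes with 10 or more expected UMIs in the smallest sum. This was chosen after a test on simulated data showed an offset when all genes were used, because the sums differ in size. Named genes were the 12 highest and 12 lowest log2 fold changes with an adjusted p under 0.05, at least 20 CPM in the higher class and the same direction in each library, and examples from each list. For sex, up to 5 each way at 10 CPM or more whose arms did not overlap were named, with sex-linked genes, of which 0 of 6 differed between the classes. Doublets were called with scrublet in scanpy 1.11.5 at an expected rate of 6%. For the library labelled Tg female 2, whose automatic threshold failed, the highest scores were taken at that rate. The numbers shared by female and male replicates name samples and are not shown to pair them. Results for a few genes, which are left out of the list counts, and the counts of the sodium channel list are not reported here.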

Additional observations from a re-analysis of the deposited data

Results flagged for a closer look

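For 4 genes the contrast between Fgf12-rich and Fgf12-zero nuclei differed between the sexes in the class by sex test of edgeR (4 of 13703 genes, 0.0292%, adjusted p under 0.05). Both libraries whose Ccna2 counts went against their labels are labelled female. Sex and genotype therefore cannot be fully told apart in this test. Reln, a secreted glycoprotein gene of the lymphatic endothelial list, had a difference of −12.96 on the log2 scale, female minus male (edgeR adjusted p = 0.04). All 48 Reln UMIs of the Fgf12-rich nuclei were in 1 nucleus of the library labelled Tg male 1. That nucleus was a called doublet with 76 UMIs from the lymphatic endothelial list. Gm40652 had a difference of −13.19 (edgeR adjusted p = 0.023), and its 18 UMIs were in 1 nucleus of the same library. Abca8a, a gene of the fibroblast list, had a difference of 12.73 (edgeR adjusted p = 0.023), from 76 UMIs in 6 nuclei of the library labelled Tg female 1 and none elsewhere. The 6 called doublets of that library held 29 to 62 UMIs of the fibroblast list each, and its other Fgf12-rich nuclei 0 to 5. The part of doublets in the Abca8a difference was not tested. These 3 fitted values set groups with no UMI against others and give no size of effect.

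Dapk2, a death-associated protein kinase gene, had a difference of 2.24 (SE 0.50, edgeR adjusted p = 0.039). It had 310, 206, 328, 230 and 145 CPM in the Fgf12-rich nuclei and 39.2, 21.4, 41.1, 91.4 and 119 CPM in the Fgf12-zero nuclei, so the Fgf12-zero nuclei of the libraries labelled male were the higher ones. The Dapk2 call was kept in 2 of 10 alternatives, that of Reln in 2 of 9, and those of Gm40652 and Abca8a in 6 of 10 each.

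Outside the cardiomyocyte nuclei, 143 of 14869 nuclei with 2500 or more UMIs (0.962%) also had 3 or more Fgf12 UMIs, 26, 47, 21, 29 and 20 by library. Of these, 28 had 1% to 2% of UMIs from Ttn, Ryr2 and Trdn. Among the 28, 20 had 2 or more UMIs over Cntn2, Cpne5 and Etv1, and 8 had 2 or more over Myl7, Sln and Myl4. Another 106 had under 0.5%, and their highest marker list was lymphatic endothelial in 45, fibroblast in 42, endothelial in 10 and pericyte in 6.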

How the results depend on the processing

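The 807 genes that differed between Fgf12-rich and Fgf12-zero nuclei became 219 of 1973 tested with depth-matched zero nuclei, 535 with nuclei of 5000 to 15000 UMIs, 320 with nuclei thinned to 2500 UMIs and 137 with Ttn, Ryr2 and Trdn at 4% or more. They became 570 by DESeq2, 562 without the replicate block, 573 to 805 without 1 library, and, in alternatives added after seeing the data, 1472 at 1% or more and 1005 with the scaling over all genes. Of the 24 genes chosen by rank none changed sign where tested. With nuclei thinned to 2500 UMIs 9 of 20 tested lost their call, and at 4% or more 10 of 16 did, all of them genes that fell. At matched depth 10 of the 24 could be tested, and these kept their call. Within Fgf12-rich nuclei, the 8 genes by sex became 2 by DESeq2, 30 with no filter on low counts, 16 with 5 libraries and a genotype term, 14 with 2 or more Fgf12 UMIs, 2 without doublets, 7 with the replicate block and 19 to 29 without 1 library. Xist and Tsix were called in all 10 alternatives. The 4 genes of the class by sex test became 0 by DESeq2 (211 at an unadjusted p under 0.05), 2 with no filter, 12 with the libraries labelled Tg and 0 to 12 without 1 library. The 0 was without Tg female 1 (378 at an unadjusted p under 0.05). The share of Fgf12-rich nuclei, female minus male, was −0.288 points at 4% or more, −0.0214 without doublets, −0.0579 with nTg female 1 added, 0.704 at 1% or more (exact permutation p = 0.333), 0.0559 with the replicate block and −0.275 to 0.387 without 1 library, −0.0356 of these without Tg female 1 and −0.275 without Tg male 2. The cause of these changes was not tested, except that fewer nuclei, UMIs or tested genes entered the depth, thinning and 4% settings. The correlation of female 1 with the same-numbered male 1 was 0.0563. With male 2 it was −0.0563, the same value with its sign turned, so the numbers are not shown to pair the libraries. With 6 to 19 Fgf12-rich nuclei a library, a single nucleus can set a gene's value.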
